A study of Drosophila melanogaster with 18 samples.

Results

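The pair-rule genes eve (even skipped), ftz (fushi tarazu), odd (odd skipped), prd (paired) and slp2 (sloppy paired 2) were followed in staged Drosophila melanogaster embryos on Affymetrix arrays. The 5 members are the probe sets whose array annotation gives 1 of these symbols alone. Each gene had 1 such probe set, among 18952 on the array, 13647 with a single symbol and 14560 that were tested. All 5 passed the filter on low values.

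The study compared diploid embryos, labelled wild-type and laid by w;histone H2-GFP parents, with haploid embryos of maternal haploid;histone H2-GFP parents. Both sets of parents thus carried the histone fusion, and embryos were staged under a fluorescence microscope by the time since telophase. Diploid embryos were taken at 15 min of cycle 13 and at 15 and 40 min of cycle 14 (early and late). Haploid embryos were taken at 15 min of cycle 14 and at 15 and 40 min of cycle 15. Each of the 6 groups had 3 biological replicates, each a pool of about 50 hand-selected embryos, so that nothing is known here of single embryos. The stages were chosen so that each haploid stage has the ratio of nuclear DNA to cytoplasm of the diploid stage 1 cycle earlier. The number of nuclei is not matched by this.

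Pair-rule genes encode transcription factors that divide the blastoderm into segment-wide units, and they are the first genes of the segmentation hierarchy to be expressed in periodic stripes. In D. melanogaster, eve, ftz and odd belong to the primary pair-rule genes, whose stripes are placed by maternal and gap factors through stripe enhancers or by other pair-rule proteins. The secondary genes prd and slp2 respond mainly to the primary ones, and together they set the borders at which segment polarity genes such as en and wg are switched on. Eve and Ftz are homeodomain proteins, Odd has zinc fingers, Prd has a paired domain and a homeodomain, and Slp2 is a forkhead protein. The arrays measured RNA of whole embryos, in which the number of expressing nuclei and the RNA per nucleus cannot be told apart, and they carry no information on stripe position.

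All intensities below are quantile normalised (every array given the same distribution of values), and log2 differences come from 1 model fitted to all tested probe sets. An adjusted p below 0.05 is a call. Background is an intensity of 31.9, the 95th percentile of the 20 negative control probe sets. As deposited, the arrays differed in brightness, with an upper quartile of 236.3 on average in diploid cycle 13 against 97.6 in haploid cycle 14. The choice of scaling bears on every comparison that uses those groups and is taken up with them. Stage markers of cellularising embryos (slam, nullo, bnk and Sry-alpha) were above background in all 6 groups, 4 of 4. Of 7 markers of mother tissue, at most 2 had a group mean above background, and their summed intensity ran from 73.2 to 282.5 over all arrays. Of 3 measured markers of later embryos, the neuronal gene elav was above background on every array of diploid late cycle 14 (254 ± 17.0, SD, n = 3), haploid early cycle 15 (166 ± 19.5) and haploid late cycle 15 (829 ± 55.0). The summed level of these 3 markers was 253.8 to 306.4 in diploid late cycle 14 and 785.1 to 878.5 in haploid late cycle 15, while the glial gene repo was below background in every group mean.

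Eve, a repressor needed for the parasegment borders, was already detected in the last syncytial interphase. In diploid cycle 13 its 3 arrays read 84.7, 90.4 and 88.9, in early cycle 14 they read 140.2, 191.6 and 241.7, and in late cycle 14 they read 308.8, 262.0 and 338.2. The 3 diploid stages did not overlap, and the spread was widest in early cycle 14. In haploid cycle 14 the arrays read 99.5, 114.2 and 120.2, in early cycle 15 they read 213.6, 219.0 and 225.0, and in late cycle 15 they read 452.1, 367.5 and 526.5. Haploid late cycle 15 embryos thus held the highest eve readings of all 6 groups, with a mean of 449 ± 79.6 (SD, n = 3) against 303 ± 38.4 in diploid late cycle 14. In order of level, only haploid early cycle 15 and diploid early cycle 14 were neighbours whose arrays overlapped.

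Ftz, an activator of the alternate parasegments, also started above background. Diploid cycle 13 arrays read 155.3, 186.6 and 189.4, early cycle 14 arrays 259.6, 271.8 and 267.3, and late cycle 14 arrays 635.8, 668.1 and 676.2. Haploid cycle 14 arrays read 208.8, 236.2 and 199.8, early cycle 15 arrays 403.0, 295.5 and 380.9, and late cycle 15 arrays 915.4, 786.4 and 715.8. No neighbouring groups overlapped in the order diploid 13, haploid 14, diploid early 14, haploid early 15, diploid late 14 and haploid late 15, so that haploid and diploid stages alternated.

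Odd, a repressor that sharpens the stripes of other pair-rule genes, had the widest range of the 4 members detected throughout. Diploid cycle 13 arrays read 84.2, 81.5 and 103.6, early cycle 14 arrays 279.7, 200.4 and 255.8, and late cycle 14 arrays 1516, 1507 and 1604. Haploid cycle 14 arrays read 220.3, 219.0 and 189.4, early cycle 15 arrays 455.3, 359.0 and 471.1, and late cycle 15 arrays 1505, 1398 and 1329. Haploid cycle 14 overlapped with diploid early cycle 14, and here diploid late cycle 14 lay above haploid late cycle 15, the reverse of the order for the other 4 members.

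Prd, an activator of wg and en, read 58.7, 70.3 and 57.5 in diploid cycle 13, then 195.8, 178.6 and 230.0 in early cycle 14, and 382.6, 366.6 and 449.8 in late cycle 14. Its haploid arrays read 92.3, 86.1 and 93.7 in cycle 14, then 269.6, 201.3 and 257.1 in early cycle 15, and 682.0, 607.5 and 596.4 in late cycle 15. As for eve, the single overlap between neighbours was that of diploid early cycle 14 with haploid early cycle 15.

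Slp2, which represses other pair-rule genes and sustains wg, was the latest member to pass background. Its arrays read 8.86, 7.04 and 17.2 in diploid cycle 13, 24.0, 17.9 and 24.6 in early cycle 14, and 106.8, 90.4 and 97.9 in late cycle 14. They read 13.2, 6.02 and 20.2 in haploid cycle 14, 34.0, 25.6 and 25.7 in early cycle 15, and 181.8, 186.6 and 173.8 in late cycle 15. Only the 2 late groups were above background on all arrays, and in haploid early cycle 15 it was 1 array of 3, so differences among the 4 earlier groups are differences below or at background and are given no fold.

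**Figure D1:**
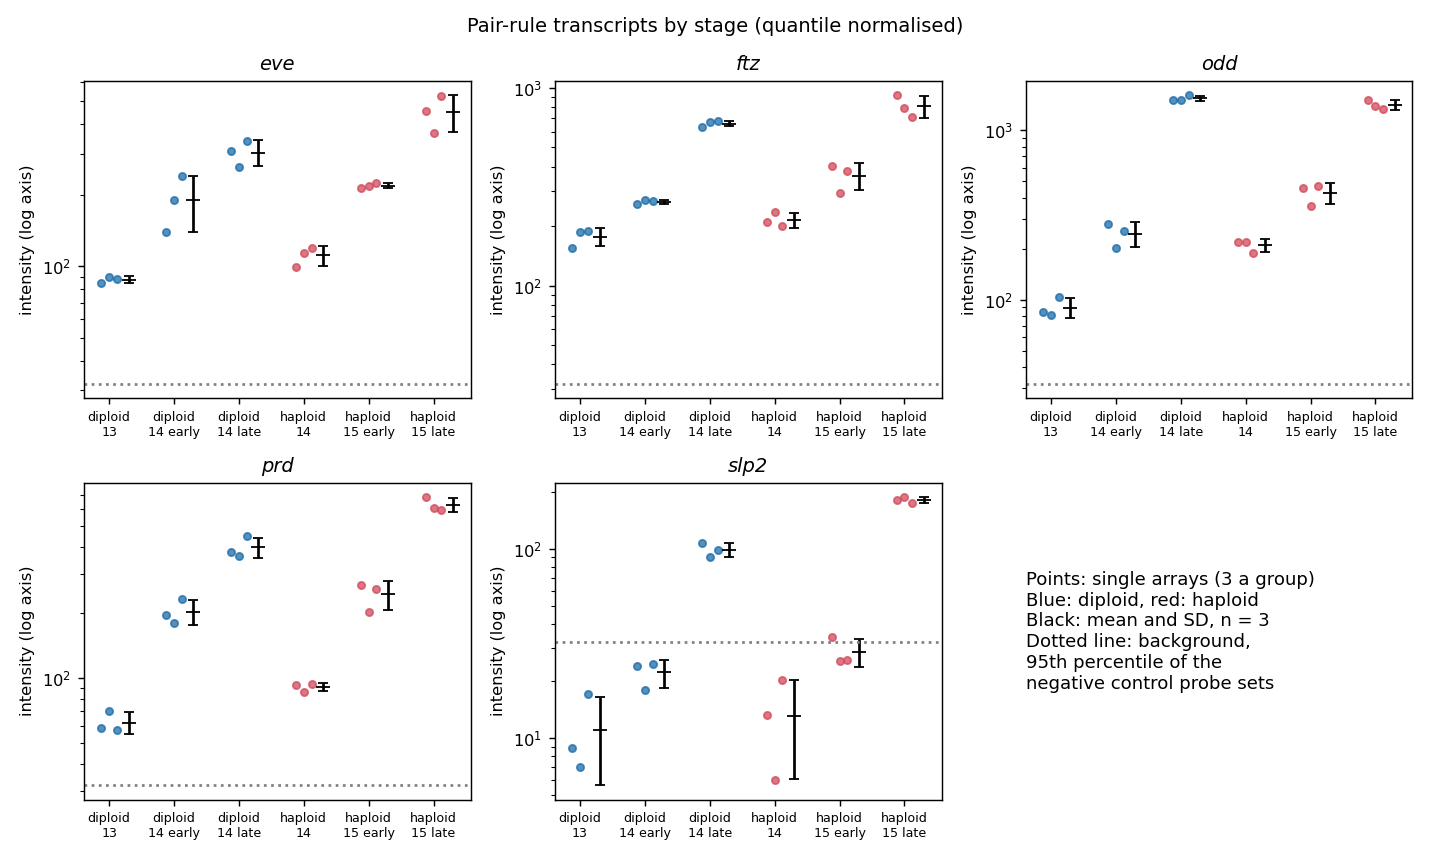
Intensity (log axis) of the 5 pair-rule probe sets on each of 18 arrays, with diploid groups in blue, haploid groups in red, mean and SD (n = 3) in black, and the background of 31.9 as a dotted line. Every member was highest in a 40 min group, and slp2 alone was below background on all but 1 of the 12 arrays taken at 15 min.

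The first question was how the members changed across the study's steps within 1 ploidy. From diploid cycle 13 to early cycle 14, all 5 members were called higher, against 16.8% of all tested probe sets called higher. The rises were 3.24-fold for prd (log2 1.69 ± 0.13, SE, adjusted p = 7.0e-10), 2.72-fold for odd (log2 1.44 ± 0.12, adjusted p = 2.7e-09), 2.12-fold for eve (log2 1.08 ± 0.16) and 1.51-fold for ftz (log2 0.59 ± 0.12, adjusted p = 3.7e-04). Slp2 was called with both groups below background (adjusted p = 0.034), a call lost when any of 4 single arrays was left out, with adjusted p from 0.094 to 0.16 (diploid cycle 13 replicate 1 or 2, early cycle 14 replicate 1 or 3). The median difference of the members was 1.10 against 0.10 over all tested probe sets. Where arrays were centred on ribosomal protein genes or on spiked poly-A controls, only odd and prd were called in this step. The ftz call was lost under all 4 other scalings, with log2 differences of 0.41 (deposited values), 0.15 (median centring), 0.049 (ribosomal protein) and 0.22 (poly-A).

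From early to late cycle 14 in diploids, all 5 were called higher again, against 14.7% of tested probe sets. Odd rose 6.35-fold (log2 2.67 ± 0.12, adjusted p = 6.7e-14), a difference that exceeded 99.1% of all tested probe sets. Ftz rose 2.48-fold (log2 1.31 ± 0.12), prd 1.99-fold (log2 0.99 ± 0.13) and eve 1.62-fold (log2 0.69 ± 0.16, adjusted p = 0.0017), while slp2 rose at least 3.08-fold from below background (adjusted p = 9.8e-05). Without any rescaling of the deposited values the eve difference was 0.14. It was 0.19 after median centring, 0.26 after centring on ribosomal protein genes and -0.049 after centring on the spiked controls, none of them called. The median of all tested probe sets was itself -0.19 on the deposited scale and -0.39 with the spiked controls. Relative to the median of each scaling, eve stood at 0.34 under each of these other scalings and at 0.67 with quantile normalisation. Prd was called under 3 of the 5 scalings. The median of the members was 1.31 against 0.03 over all tested probe sets.

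In haploids, all 5 members were called higher from cycle 14 to early cycle 15, against 10.4% of tested probe sets called higher in that step. Prd led with 2.66-fold (log2 1.41 ± 0.13, adjusted p = 2.9e-08), followed by odd with 2.04-fold (log2 1.03 ± 0.12), eve with 1.98-fold (log2 0.98 ± 0.16) and ftz with 1.66-fold (log2 0.73 ± 0.12). Slp2 reached background on 1 of 3 arrays, and its call (adjusted p = 0.019) was lost without haploid cycle 14 replicate 2 (adjusted p = 0.14) or without early cycle 15 replicate 1 (adjusted p = 0.08). From early to late cycle 15 the 5 members were called higher once more, against 14.1% of tested probe sets. The rises were 3.31-fold for odd (log2 1.73 ± 0.12), 2.61-fold for prd (log2 1.38 ± 0.13), 2.25-fold for ftz (log2 1.17 ± 0.12) and 2.03-fold for eve (log2 1.02 ± 0.16). Slp2 went from 28.4 ± 4.82 to 181 ± 6.47 (SD, n = 3, adjusted p = 4.7e-06). Medians of the members were 1.03 and 1.38 in these steps, against 0.03 and -0.03 over all tested probe sets. Each rise of the first haploid step was called under all 5 scalings, and in the second haploid step the 1 exception was eve with poly-A centring (log2 0.42).

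The level at each stage was also set against the late level of the same probe set. In diploid early cycle 14, eve stood at 63.1% of its mean in late cycle 14 and prd at 50.4%, ftz at 40.3% and odd at 15.9%. At cycle 13 the same shares were 29.0% for eve, 15.6% for prd, 26.8% for ftz and 5.82% for odd. In haploids at early cycle 15, eve had reached 48.9% of its late cycle 15 mean, ftz 44.7%, prd 38.6% and odd 30.4%. The shares depended on the scaling. Over the 5 scalings the diploid early cycle 14 share was 63.1% to 105.3% for eve, 50.4% to 82.2% for prd, 40.3% to 62.9% for ftz and 15.9% to 23.7% for odd, and at cycle 13 it was 29.0% to 62.8%, 15.6% to 29.5%, 26.8% to 54.1% and 5.82% to 11.6%, in the same order of genes. In haploid early cycle 15 it was 48.8% to 75% for eve, 44.1% to 68.3% for ftz, 37.7% to 58.2% for prd and 28.4% to 43.9% for odd. Within each scaling odd had the lowest share of these 4 genes at both of these early stages. No difference between members in the shares was tested.

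**Figure D2:**
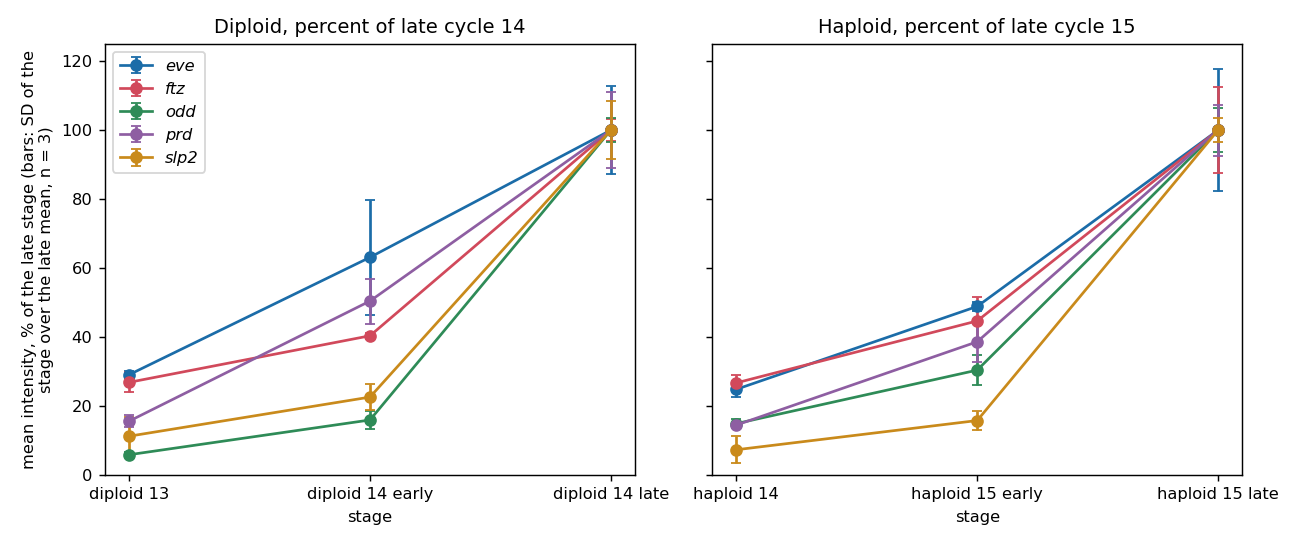
Mean intensity of each member as a percent of its own mean at the 40 min stage of the same ploidy (bars, SD of the stage over that late mean, n = 3), for diploid (left) and haploid stages (right), all quantile normalised. At the middle stage odd stood at 15.9% in diploids and 30.4% in haploids, and eve at 63.1% and 48.9%.

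The design next asks whether haploid embryos resemble the diploid stage with the same ratio of nuclear DNA to cytoplasm. Some measures of RNA and of other cells differed along with ploidy. The ratio of 3′ to 5′ signal of the Act5C control was 4.58 to 4.81 in the diploid group means and 5.62 to 6.30 in the haploid ones. The deposited GAPDH 3′ control read 1063, 199.6 and 131.7 over the diploid stages and 52.1, 62.7 and 50.9 over the haploid ones. It thus also fell with stage within diploids. Of 3 measured germ plasm markers (osk, vas and gcl), 2 were called lower in haploids at each matched pair, with list medians of -0.93, -1.67 and -0.81 (log2). The remaining 1 was called higher in haploids at the first 2 pairs and was not called at the late pair. Over all 14560 tested probe sets, 2188, 1794 and 1695 were called lower at the matched pairs, and 3004, 2044 and 1363 higher. Of 2 tested markers of later embryos, 1 was called higher in haploids at each matched pair. The summed level of the 3 measured ones was 43.4 to 60.3 in haploid cycle 14 against 19.95 to 34.9 in diploid cycle 13. In haploid early cycle 15 it was 169.7 to 205.3, against 35.6 to 51.0 in diploid early cycle 14. The part of these measures in the differences of the members was not tested. Haploid cycle 14 was set against diploid cycle 13. With quantile normalisation, 2 of 5 members were called higher and 0 lower, against 20.6% of tested probe sets called higher. Odd was 2.34-fold higher in the haploids (log2 1.23 ± 0.12, adjusted p = 2.2e-08) and prd 1.46-fold (log2 0.55 ± 0.13, adjusted p = 0.0019). The differences of eve (0.33 ± 0.16, adjusted p = 0.12) and ftz (0.28 ± 0.12, adjusted p = 0.067) missed the threshold, and slp2 was below background in both groups. The signs for eve, ftz and prd depended on the scaling. Their differences were -1.01, -0.84 and -0.66 on the deposited scale, where the median of all tested probe sets was itself -0.49, and relative to that median they were -0.52, -0.34 and -0.17. Median, ribosomal protein and poly-A centring also gave negative values for all 3 genes, and 2 or 3 members were called lower under each of these 4 scalings. Odd lay above the median of all tested probe sets under each of the 5 scalings, by 0.56 to 1.14. Its own difference was 0.51 after median centring, 0.30 after ribosomal protein centring, 0.075 without rescaling and -0.044 after poly-A centring.

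At the next matched pair, haploid early cycle 15 against diploid early cycle 14, 2 of 5 members were called higher, against 14.0% of tested probe sets. Odd was 1.75-fold higher in haploids (log2 0.81 ± 0.12, adjusted p = 2.1e-05) and ftz 1.34-fold (log2 0.42 ± 0.12, adjusted p = 0.0084, and adjusted p = 0.065 without haploid early cycle 15 replicate 1). The intervals of the other differences were -0.10 to 0.57 for eve, -0.01 to 0.54 for prd and -0.43 to 1.16 for slp2 (95%, log2). The prd difference rose to 0.39 and was called without haploid early cycle 15 replicate 2 (adjusted p = 0.043). None of the 5 members was called higher under the 4 other scalings, where odd kept its direction (0.18 to 0.49) and eve and prd took negative values.

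At the last matched pair, haploid late cycle 15 against diploid late cycle 14, prd was 1.58-fold higher in haploids (log2 0.66 ± 0.13, adjusted p = 7.0e-04) and eve 1.47-fold (log2 0.56 ± 0.16, adjusted p = 0.013), 2 of 5 members against 9.36% of tested probe sets called higher. The arrays of the 2 groups did not overlap for any member, but ftz (adjusted p = 0.10), odd and slp2 were not called. The share of all tested probe sets without such overlap is not given here. Slp2 had the largest difference (0.88 ± 0.38, adjusted p = 0.12), and odd was the 1 member with a negative value (-0.13 ± 0.12, interval -0.39 to 0.13, adjusted p = 0.57). The positive signs of eve, prd and slp2 and the negative sign of odd held under all 5 scalings, while ftz turned from 0.28 to -0.025 with poly-A centring. Of the 4 other scalings, the prd call was kept under median centring only, and the eve call was lost under all 4 (0.20 to 0.45). The eve call was also lost without diploid late cycle 14 replicate 2 (adjusted p = 0.084) or haploid late cycle 15 replicate 3 (adjusted p = 0.099). The later-embryo marker elav was also higher in these haploids, as given above, and its part in the differences was not tested.

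A second reading of the design compares the ploidies at the same cycle and the same minutes into it. In haploid cycle 14 against diploid early cycle 14, all 5 members had negative differences and 2 were called lower, against 10.4% of tested probe sets called lower. Prd was 2.21-fold lower in haploids (log2 -1.14 ± 0.13, adjusted p = 1.1e-06) and eve 1.68-fold lower (log2 -0.75 ± 0.16, adjusted p = 0.0014). The differences of ftz (-0.31 ± 0.12, adjusted p = 0.064) and odd (-0.22 ± 0.12, adjusted p = 0.26) were not called, and the interval for odd was -0.47 to 0.04. Slp2 was below background in both groups. The 5 negative signs held under all 5 scalings, and eve and prd were called under each. Ftz and odd were also called lower under the 4 scalings other than quantile normalisation, with differences of -1.25 to -0.56 and -1.15 to -0.47. The median of all tested probe sets was itself -0.75 on the deposited scale and -0.68 with poly-A centring. Relative to the median of each of the 5 scalings, ftz stood at -0.50 to -0.34 and odd at -0.41 to -0.24. Without haploid cycle 14 replicate 2 the ftz difference was -0.38 and was called (adjusted p = 0.049).

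Haploid early cycle 15 embryos were then set against diploid late cycle 14, and 4 of 5 members were called lower, against 8.64% of tested probe sets. Odd was 3.62-fold lower in the haploids (log2 -1.86 ± 0.12, adjusted p = 1.1e-10), ftz 1.85-fold lower (log2 -0.89 ± 0.12) and prd 1.65-fold lower (log2 -0.73 ± 0.13, adjusted p = 3.1e-04). Slp2 read 28.4 ± 4.82 in haploids, with 1 of 3 arrays above background, and 98.4 ± 8.24 in diploids (SD, n = 3, adjusted p = 0.0013). Eve missed the threshold (log2 -0.46 ± 0.16, adjusted p = 0.052) although its arrays did not overlap, and it was called without diploid late cycle 14 replicate 2 (log2 -0.56, adjusted p = 0.037) and with the replicate number as a block (adjusted p = 0.03). All 5 signs were negative under the 5 scalings. Eve was called lower on the deposited scale (-0.72) and with median (-0.57) and ribosomal protein (-0.65) centring, and the calls of ftz (-0.60), prd (-0.47) and slp2 (-1.23) were lost with poly-A centring.

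**Figure D3:**
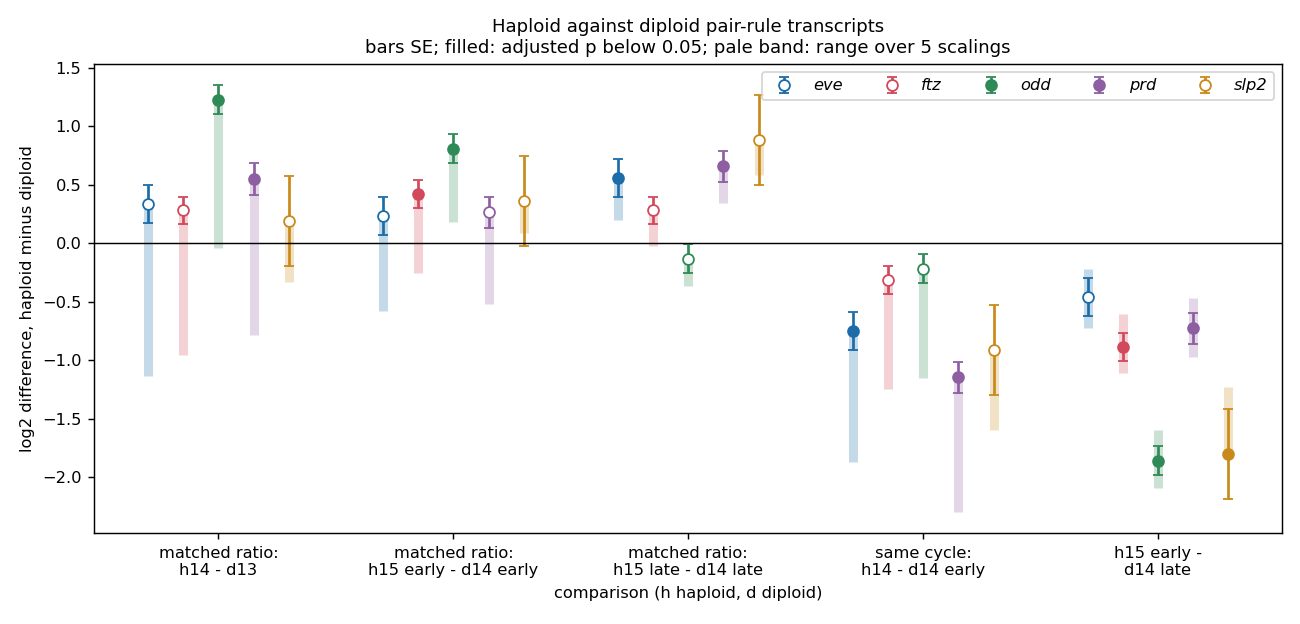
Haploid minus diploid log2 difference of each member in the 5 comparisons between ploidies (points with SE from the model, filled where the adjusted p is below 0.05), with the range over 5 scalings as a pale band. At the first matched pair (h14 - d13) the bands of all 5 members cross 0, that of odd only to -0.044, whereas every band lies below 0 in both comparisons on the right.

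The size of each step was compared between ploidies with an interaction term. In the first step 0 of 5 members differed, against 8.96% of tested probe sets called in either direction. At an unadjusted p below 0.05, 1 of 5 did, odd (log2 -0.42 ± 0.18, adjusted p = 0.16). That odd difference was called without diploid early cycle 14 replicate 2 (log2 -0.55, adjusted p = 0.0496), and it turned to 0.10 with deposited values, 0.063 after centring on ribosomal protein genes and 0.53 after poly-A centring. In the second step odd rose by less in haploids than in diploids (log2 -0.94 ± 0.18, adjusted p = 4.8e-04), 1 of 5 members against 7.95% of tested probe sets called lower. The other second-step values were 0.33 ± 0.23 for eve, -0.14 ± 0.17 for ftz, 0.39 ± 0.19 for prd and 0.52 ± 0.54 for slp2, none of them called. The odd difference was negative under all 5 scalings (-0.47 to -0.94) but was called with quantile normalisation alone. Prd was called higher under 3 of the 5, at 0.93 (deposited values), 0.90 (median) and 0.84 (ribosomal protein), and eve under 1, at 0.83 (median). Which members differed between ploidies in this step thus depended on the scaling. Of the 4 stage markers of cellularising embryos, 3 were also called lower in this interaction (median -0.75) and 2 at the late pair. Among all 14560 tested probe sets, 1695 were called lower at the late pair. The part of these stage markers in the odd difference was not tested.

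A scaling factor common to 1 array cancels between its probe sets. Quantile normalisation is not such a factor and does not cancel, so ratios of odd are also given on the deposited scale. For them odd was expressed relative to the mean log2 value of eve, ftz and prd on the same array. This measure was chosen after the values had been seen and is given as a description, with no test. The ratio was -0.14 ± 0.22 in diploid cycle 13, 0.18 ± 0.32 in early cycle 14 and 1.84 ± 0.07 in late cycle 14 (SD, n = 3, log2). For haploids it was 0.69 ± 0.15 in cycle 14, 0.68 ± 0.07 in early cycle 15 and 1.22 ± 0.10 in late cycle 15. Odd thus gained on the other members over the second diploid step by 1.67, over the second haploid step by 0.54, and over the first haploid step not at all (-0.02). Haploid cycle 14 arrays (0.53 to 0.83) lay above all diploid cycle 13 arrays (-0.38 to 0.07) and overlapped with early cycle 14 (-0.07 to 0.54), and haploid late arrays (1.13 to 1.32) lay below diploid late arrays (1.78 to 1.91). On the deposited scale the ratios were -0.09, 0.18 and 1.97 for diploid stages and 0.83, 0.80 and 1.42 for haploid ones, and there haploid cycle 14 also cleared the early cycle 14 arrays.

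The same ratio for ftz, relative to eve, odd and prd, fell by 0.81 from diploid cycle 13 (1.17 ± 0.10) to early cycle 14 (0.35 ± 0.19), and by 0.40 from haploid cycle 14 (0.74 ± 0.12) to early cycle 15 (0.34 ± 0.10), with no overlap of arrays in either step. For prd the ratio to eve, ftz and odd was higher in haploid late cycle 15 (-0.41 to -0.28) than in diploid late cycle 14 (-0.81 to -0.67). The ratios share genes, so that a lower odd raises the ratio of prd by construction.

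**Figure D4:**
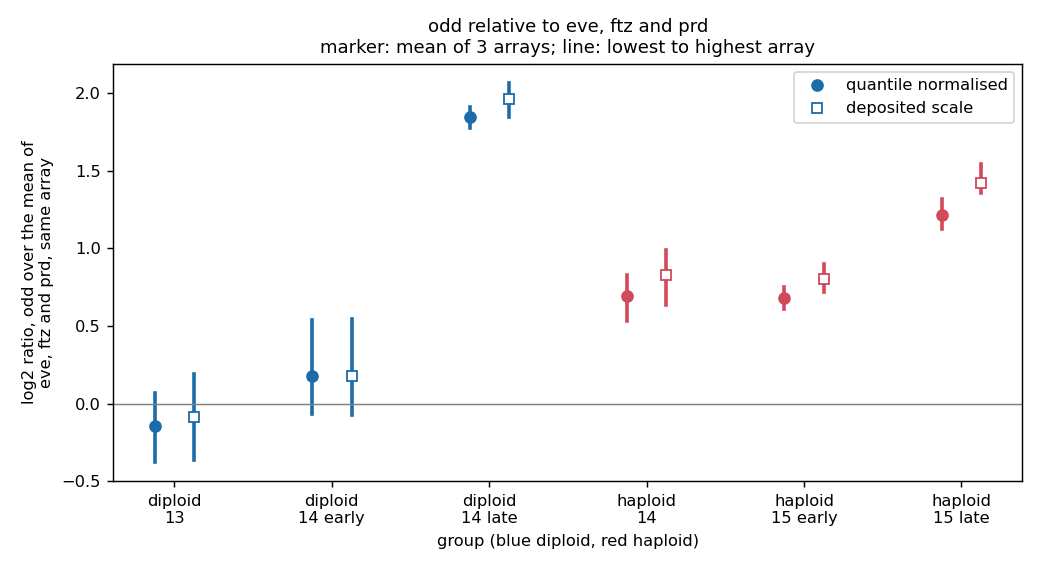
Log2 ratio of odd to the mean of eve, ftz and prd on the same array, as the mean of 3 arrays (filled, quantile normalised; open, deposited scale) with a line from the lowest to the highest array. Haploid cycle 14 (0.69) lies above diploid cycle 13 (-0.14) and haploid late cycle 15 (1.22) below diploid late cycle 14 (1.84).

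Other genes of the segmentation pathway were read from a fixed list. Of the 4 remaining pair-rule genes listed, opa had a single-symbol probe set, and h, run and slp1 were not analysed here. Opa, a zinc finger activator that acts late in the cascade, was below background on all arrays of diploid cycle 13, diploid early cycle 14 and haploid cycle 14. It then read 746 ± 28.3 in diploid late cycle 14. Haploid early cycle 15 embryos read 57.8 ± 8.93 and late ones 1723 ± 171 (SD, n = 3). Like slp2, it was thus near background at 15 min of the last cycle and far above it at 40 min in both ploidies.

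The 5 gap genes listed (Kr, kni, gt, tll and hkb), which place the primary stripes, were called higher in the first step of both ploidies, 5 of 5, against 16.8% of tested probe sets in diploids and 10.4% in haploids. Their second step counted 4 of 5 in diploids (median 0.64, against 14.7% of tested probe sets) and 4 of 5 in haploids (median 0.54, against 14.1%), and medians over all tested probe sets were 0.03 and -0.03. For Kr the intensity was 379 ± 27.0, 1380 ± 104 and 2524 ± 190 over the diploid stages, then 1064 ± 42.2, 1774 ± 50.0 and 2701 ± 46.7 over the haploid ones. In haploid cycle 14 against diploid early cycle 14, all 5 gap genes were called lower, against 10.4% of tested probe sets. Of 6 tested maternal and early activators, 4 were called higher and 1 lower in the first diploid step. In the second, 1 was called higher and 3 lower. Among all 14560 tested probe sets, 2443 were called higher and 1534 lower in the first diploid step. The second diploid step had 2146 called higher and 1936 lower. Bcd, the maternal anterior activator, went from 2976 ± 63.9 in diploid early cycle 14 to 334 ± 49.2 in late cycle 14. The posterior activator cad read 2331 ± 180, 1587 ± 137 and 987 ± 205 in the diploid stages, so both inputs were lower when the members were highest.

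Among 3 tested cofactors, the corepressor gene gro rose in both diploid steps (127 ± 14.6, 230 ± 24.8 and 460 ± 32.8) and in both haploid steps (217 ± 9.01, 338 ± 16.8 and 660 ± 54.8). The Ftz partner ftz-f1 read 1798 ± 287, 1929 ± 141 and 1547 ± 167 in diploid stages and was called lower in the second haploid step, to 1013 ± 87.6. Of 12 listed targets, 5 were tested. The Toll receptor genes Tollo and 18w, which are read out in stripes under Eve and Runt, rose in every step of both ploidies. For Tollo the intensity was 100 ± 16.5, 149 ± 8.68 and 937 ± 77.8 in diploid and 134 ± 23.7, 369 ± 51.4 and 1332 ± 119 in haploid stages. The segment polarity genes en and hh were below background on every array of all 6 groups, so that at 40 min their transcripts were not detectable in whole embryos on these arrays.

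In the RefSeq gene table (Release 6), odd lies beside its relative sob and slp2 beside slp1 on arm 2L, and ftz lies between Scr and Antp on 3R. Sob, a zinc finger gene of the odd family, read 20.1 ± 8.05, 33.9 ± 5.19 and 48.6 ± 2.99 in diploid stages and 24.5 ± 8.56, 27.0 ± 4.30 and 57.7 ± 16.7 in haploid stages, above background on all arrays of the late groups alone. Antp read 73.1 ± 11.8 in diploid late cycle 14 and 80.9 ± 5.64 in haploid late cycle 15, and at most 37.1 ± 13.4 in the other groups. Scr, the other flanking Hox gene of ftz, was below background on all 18 arrays. In diploid cycle 13 and early cycle 14, where ftz was measured on every array, both of its neighbours were below background on every array.

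The members followed one another across the 18 arrays, with Pearson correlations of log2 values from 0.91 (eve and odd) to 0.98 (eve and prd). These are descriptions over arrays that share stage and ploidy. Among 6974 other genes, the kinase gene Hipk had the pattern most like that of prd (r = 0.99) and of eve (r = 0.98). Its intensity was 231 ± 21.3, 410 ± 16.7 and 594 ± 33.5 in diploid and 264 ± 12.2, 462 ± 8.32 and 811 ± 57.6 in haploid stages. The next for prd were mira (r = 0.986) and siz (r = 0.985), and for eve wech (r = 0.975) and Flacc (r = 0.973). For odd they were flfl, Keap1 and wda (r = 0.99 for each), for ftz CG7879, Lac and kis (r = 0.99 for each), and for slp2 SRPK, Pof and spi (r = 0.96 for each). SRPK was above background on 9 of 18 arrays, and slp2 on all arrays of the late groups alone. The correlations of slp2 thus include many values below background.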

How the data were processed

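The authors deposited 1 linear intensity per probe set and array, and the submitters' processing notes name MAS5. Its version is not given in the sources used here, nor is its scaling target. Total RNA was labelled as biotinylated cRNA, per the labels' protocols. Trimmed mean intensities (2% at each end) ran from 145.5 to 279.1, a ratio of 1.92, so the 18 arrays were quantile normalised, floored at 0.1 and log2 transformed. Tested were 14560 probe sets that reached the 40th percentile, an intensity of 12, on 3 or more arrays. One model of 6 group means was fitted with limma 3.58.1 (R 4.3.3), with an intensity trend and Benjamini-Hochberg adjustment over the tested probe sets. Intensity errors are SDs, log2 errors are SEs of the model. A fold written "at least" divides the brighter mean by background, because no array of the other group passed background. The number of arrays limits the precision.

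On simulated data for diploid cycle 13 to early cycle 14 (14380 probe sets tested), 90% of 2-fold and 98% of 4-fold changes were recovered. The 200 changed probe sets were drawn from those with a mean log2 level above background, and 8 unchanged ones were called. The simulation thus does not bear on slp2 at low signal or on the interaction terms.

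Members, gene lists and tests were chosen with earlier results of these data known. Named are the members, listed genes and the 3 genes most correlated with each member among genes reaching the 60th percentile (28.9) on at least 3 arrays. Replicate numbers did not pair samples: deviations of same-numbered arrays correlated at -0.02 to 0.03 over 45 pairs of arrays. Alternatives were 4 other scalings, a pseudocount of 16, 2 filters, no trend, a replicate block and omission of each array. No sequence was printed.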

Additional observations from a re-analysis of the deposited data

Results flagged for a closer look

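The second step of odd differed between the ploidies in the interaction term of the model fitted with limma: the log2 rise was 2.67 in diploids and 1.73 in haploids, a difference of -0.94 (adjusted p = 4.8e-04). With quantile normalisation, all 3 haploid late arrays (1329 to 1505) lay below all 3 diploid late arrays (1507 to 1604), a difference that was not called (-0.13, adjusted p = 0.57). All 3 haploid early cycle 15 arrays lay above all 3 diploid early cycle 14 arrays. On the deposited scale these early groups overlapped (269.3 to 471.9 in haploids, 295.2 to 357 in diploids). The share of all tested probe sets without overlap is not given here. Other scalings gave -0.47 (deposited values), -0.50 (median), -0.57 (ribosomal protein genes) and -0.86 (spiked poly-A controls), none of them called.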

How the results depend on the processing

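Scaling was the choice that moved most results, and the cause was not tested. Counts of members called higher were 2 under ribosomal protein and 2 under poly-A centring for diploid cycle 13 to early cycle 14, and 3 on the deposited scale and 3 under poly-A centring for early to late cycle 14. For haploid cycle 14 against diploid cycle 13 they were 0 (deposited), 1 (median), 0 (ribosomal protein) and 0 (poly-A), with 3, 2, 2 and 3 members called lower. For haploid early cycle 15 against diploid early cycle 14 they were 0 in each of the 4, and 1 to 3 with single arrays left out. For the late pair they were 0, 1, 0 and 0, and 1 to 2 with single arrays left out. Members called lower in haploid cycle 14 against diploid early cycle 14 numbered 5, 4, 4 and 5, and in haploid early cycle 15 against diploid late cycle 14 there was 1 under poly-A centring. In the first interaction 1 was called higher under poly-A centring and 0 to 1 lower with single arrays left out. In the second, 1, 2 and 1 were called higher on the deposited scale and with median and ribosomal protein centring, and 0 were called lower under any of the 4 scalings.

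Signs turned as follows (log2; deposited, median, ribosomal protein, poly-A where all 4 are given). For haploid cycle 14 against diploid cycle 13, eve took -1.01, -0.58, -0.79 and -1.13, ftz -0.84, -0.41, -0.61 and -0.95, and prd -0.66, -0.23, -0.43 and -0.78. There odd took -0.044 under poly-A centring, and slp2 took -0.21 (deposited), -0.33 (poly-A) and -0.20 to 0.67 with single arrays left out. At the early pair, eve took -0.58, -0.37, -0.39 and -0.27, prd -0.51, -0.31, -0.33 and -0.21, and ftz -0.25, -0.052 and -0.068 in the first 3. Under poly-A centring ftz took -0.025 at the late pair and eve -0.049 from early to late cycle 14. In the first interaction eve took 0.44, 0.21, 0.40 and 0.87 (-0.30 to 0.084 with single arrays left out), odd 0.10 (deposited), 0.063 (ribosomal protein) and 0.53 (poly-A), prd 0.14, 0.10 and 0.57 under the same 3, and slp2 -0.31 to 0.56 with single arrays left out. In the second, ftz took 0.30, 0.28 and 0.21 (deposited, median, ribosomal protein).

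Over all tested probe sets, the number called was 3977 for diploid cycle 13 to early cycle 14 with quantile normalisation, against 2602 (median), 2623 (ribosomal protein) and 1812 (poly-A). Under poly-A centring it was 4717 against 2954 for haploid cycle 14 to early cycle 15, 2053 against 3838 at the early pair, 1813 against 3058 at the late pair, 5144 against 2987 (6923 on the deposited scale) for haploid cycle 14 against diploid early cycle 14, and 694 against 2109 for the second interaction. The first interaction had 1304 calls, and 743 on the deposited scale. The percent of calls that were higher, with the range over the 4 other scalings, was 61.4 (18.3 to 66.0) and 52.6 (12.9 to 25.9) in the diploid steps, and 51.4 (28.0 to 93.6) and 48.8 (12.2 to 47.4) in the haploid steps. It was 57.9 (4.08 to 34.5), 53.3 (6.45 to 15.9) and 44.6 (10.7 to 37.2) at the matched pairs, 49.5 (1.00 to 22.2) and 50.0 (27.0 to 84.1) in the other pairs, and 44.0 (53.1 to 99.1) and 45.1 (60.1 to 87.1) in the interactions.

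With the replicate number as a block, which the labels do not tie to a shared source, the 1 changed call was eve in haploid early cycle 15 against diploid late cycle 14 (-0.46, adjusted p = 0.03). That eve difference was also called with the pseudocount and with the stricter filter (both adjusted p = 0.038). The slp2 calls below background depended on single arrays and, from diploid cycle 13 to early cycle 14, on the floor (adjusted p = 0.055 with the pseudocount), while its late-pair difference was called with the pseudocount (0.78, adjusted p = 0.0039). Ftz was called with the stricter filter in haploid cycle 14 against diploid cycle 13 (adjusted p = 0.048) and against diploid early cycle 14 (adjusted p = 0.046). Without haploid cycle 14 replicate 3, slp2 was called lower in the latter (-1.30, adjusted p = 0.02). Signal near background limits slp2, and 3 arrays a group limit all comparisons.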
